A study of Mus musculus with 26 samples.

Results

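The clustered protocadherins of the mouse were taken as every row of the deposited RPKM table whose symbol named a Pcdha, Pcdhb or Pcdhg gene, linked by Ensembl identifier to the deposited counts. The rule found 24 of the 38828 genes of the RPKM table, and all 24 were among the 39017 genes of the count table. They comprised the 22 beta genes Pcdhb1 to Pcdhb22, 1 alpha row and 1 gamma row. The alpha row carries the symbol Pcdha2 (ENSMUSG00000007440) and the gamma row Pcdhga9 (ENSMUSG00000023036), whereas the GENCODE annotation gives another alpha and another gamma symbol to these identifiers. Both are called the alpha row and the gamma row here, because the sources used here do not give which isoforms they collect. The remaining 13 alpha and 21 gamma genes of the annotation have no row among the deposited counts, so they could not be analysed.

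RNA was measured in fluorescently labelled sensory neurons sorted from dissociated dorsal root ganglia of mice aged 23 postnatal days or more, in 26 libraries of 8 subtypes. LTMR stands for low-threshold mechanoreceptor, the neurons of light touch. Neurons from several mice and sorting rounds were combined in a library, so the libraries show the average of many neurons and not the choice of isoforms in a cell. Nothing in the labels ties replicate numbers across subtypes. Of the A-fibre subtypes, Aδ-LTMRs (3 libraries) came from TrkBCreER;R26tdtomato(Ai14) mice given tamoxifen at 2 mg per day on embryonic days 12 to 13, and Aβ RA-LTMRs (5 libraries) from Npy2r-GFP mice. Aβ SA1-LTMRs (3 libraries) came from TrkCCreER;Retf(GFP) mice given 3 mg per day at E12.5. Aβ Field-LTMRs (3 libraries) came from mice of that genotype given 2 mg per day on postnatal days 13 to 14 or 14 to 15. Proprioceptors (3 libraries) came from PVIRESCre;R26tdtomato(Ai14) mice and, unlike the others, from thoracic ganglia only. Of the small-diameter subtypes, nonpeptidergic nociceptors (3 libraries) came from MrgD-EGFP mice and peptidergic nociceptors (3 libraries) from CGRP-GFP mice. C-LTMRs (3 libraries) came from ThCreER;R26tdtomato(Ai14) mice with 2 mg per day on postnatal days 13 to 14 or 14 to 15. The other subtypes had no tamoxifen, so subtype, mouse line and tamoxifen cannot be told apart. In proprioceptors, ganglion level cannot be told apart from subtype either.

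Clustered protocadherins are cadherin-family adhesion proteins that assemble at cell contacts and bind the same isoform on a facing membrane, and they are known for letting the neurites of a neuron tell self from non-self. In the alpha and gamma clusters, each variable exon has its own promoter and is spliced to constant exons shared by the whole cluster, so reads from the constant part cannot be ascribed to an isoform. Beta genes are independent genes with no shared constant exon, and in them each count belongs to a gene. Promoters are chosen in each neuron with the help of CTCF, cohesin and DNA methylation.

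All 24 genes lie on the plus strand of chromosome 18 of the mm10 build, in the order alpha, beta, gamma. The annotated alpha cluster spans 36930184 to 37187661, the beta cluster 37264938 to 37524479 and the gamma cluster 37661793 to 37841873. The alpha row is annotated at 37005203 to 37187657 with 4 exons, and the gamma row at 37815079 to 37841873 with 6 exons. Of the beta genes, Pcdhb1 (37264938 to 37267525) comes before the rest and Pcdhb22 (37517871 to 37524479) stands nearest to the gamma cluster. Each beta gene shares between 0% (Pcdhb1) and 11.99% (Pcdhb12) of its exonic 50-base words with another protocadherin, and reads from shared words cannot be placed uniquely. Shorter words, and words shared with other genes, were not examined, though some reads were shorter than 50 bases. In Pcdhb12, 1107 of 3034 annotated exon bases belong to no other gene. Pcdhb21 and Pcdhb22 overlap on the same strand, and their split of reads is uncertain. The antisense genes Gm10545 and Gm10544 overlap the alpha row with a median of 17 and 11 counts per library, against a median of 19566 counts for the alpha row.

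The smallest library, of Aβ Field-LTMRs, had 10706522 counts and the largest, of C-LTMRs, 66309214, and the summed counts of the beta genes ran from 809 to 7830 per library. Levels of a gene across libraries are given as CPM, counts in proportion to the scaled library size. Levels between genes are given as the deposited RPKM, which also divides by a length. The length that it implies differed from the annotated exon length in some genes, as given below. Of 11 labelling and marker genes, 9 were highest in a subtype that they label. Npy2r and Ret were not: Npy2r averaged 20.4 CPM in Aβ RA-LTMRs and 52.9 CPM in peptidergic nociceptors, and Ret was highest in C-LTMRs. Satellite glia markers, 10 of 10 with counts in each subtype, summed to 2792 to 5355 CPM in proprioceptors and to 593 to 708 CPM in nonpeptidergic nociceptors, the highest and lowest of the 8 subtypes by the median. Myelinating Schwann cell markers, 8 of 8 with counts, summed to 2536 to 2882 CPM in C-LTMRs and to 328 to 343 CPM in proprioceptors. Read lengths differed: reads had 15 to 51 bases in Aδ-LTMR libraries 1 and 2, 25 to 50 in the 3 Aβ SA1-LTMR libraries and in Aβ RA-LTMR libraries 1 to 3, and 15 to 50 in the other 18 libraries.

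The clustered protocadherins as a set varied among the subtypes about as often as other genes did. Of the 24 members, 23 passed the filter on low counts and Pcdhb1 did not. In an F test over the 8 subtypes (edgeR quasi-likelihood, Benjamini-Hochberg adjusted p under 0.05), 17 of the 23 differed, against 78.3% of the 17411 genes tested. They were the alpha row, the gamma row and 15 of 21 beta genes. The contrasts between subtypes described next also required a log2 fold change of 1 or more in size.

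**Figure D1:**
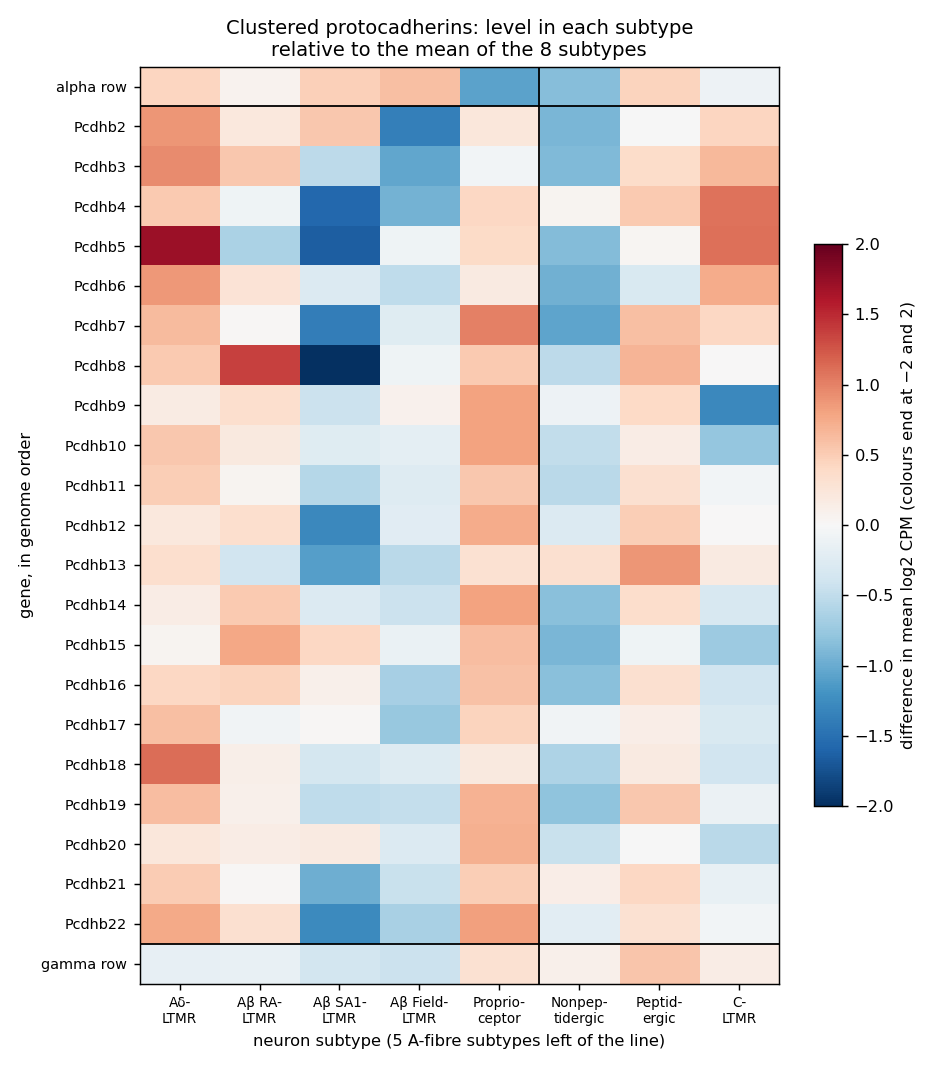
Mean log2 CPM of each of 23 members in each of the 8 subtypes, less the mean over the subtypes; rows are genes in genome order and columns are subtypes, with red above and blue below the mean of the gene. The alpha row is lowest in proprioceptors, Pcdhb8 is lowest in Aβ SA1-LTMRs, and Pcdhb2 to Pcdhb6 are above their means in C-LTMRs and in Aδ-LTMRs.

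The alpha row separated the subtypes most clearly. It had 192, 196 and 193 CPM in proprioceptors and 223, 229 and 223 CPM in nonpeptidergic nociceptors. The other 20 libraries lay between 330 CPM (Aβ RA-LTMR library 4) and 761 CPM (Aβ Field-LTMR library 1), so these subtypes were apart from all the rest and from each other. In deposited RPKM they were too, at 22.7 to 24.4 in proprioceptors and 28.1 to 28.3 in nonpeptidergic nociceptors, with 41.7 or more in the other 20 libraries. As each library is a bulk sample, fewer neurons with the RNA and less RNA per neuron cannot be told apart. By mean the order was Aβ Field-LTMRs 620 ± 126 CPM (SD, n = 3), Aβ SA1-LTMRs 573 ± 108 (n = 3), peptidergic nociceptors 549 ± 7.46 (n = 3), Aδ-LTMRs 546 ± 47.2 (n = 3), Aβ RA-LTMRs 431 ± 67.7 (n = 5), C-LTMRs 378 ± 16.4 (n = 3), nonpeptidergic nociceptors 225 ± 3.42 (n = 3) and proprioceptors 194 ± 2.39 (n = 3). In RPKM peptidergic nociceptors (81.0 ± 2.38) and Aβ SA1-LTMRs (80.8 ± 26.6) were highest, above Aβ Field-LTMRs (67.9 ± 24.2). Neighbours in the order by CPM overlapped except at the last 2 steps, from C-LTMRs to nonpeptidergic nociceptors and from these to proprioceptors.

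Against the mean of the other 7 subtypes, the alpha row was lower in proprioceptors (log2 fold change -1.23 ± 0.13 SE, adjusted p = 5.28e-08), the only member lower there, 1 of 23 against 7.66% of all genes. In nonpeptidergic nociceptors its log2 fold change was -0.98 ± 0.13 (adjusted p = 6.77e-07), just short of the size required. In Aβ Field-LTMRs it was 0.69 ± 0.11 (adjusted p = 5.89e-05) and in Aβ SA1-LTMRs 0.56 ± 0.11 (adjusted p = 0.000499), also short of it. By the subtype median, proprioceptors had the highest sum of satellite glia markers. With the glia score as a covariate, the log2 fold change of the alpha row there was -0.95 (adjusted p = 0.0362), under the size required. Proprioceptors were also the only subtype from thoracic ganglia alone, and the part of ganglion level in this difference was not tested.

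The gamma row varied within a narrower range and in another order. It was highest in peptidergic nociceptors, with 198, 200 and 197 CPM, followed by proprioceptors with 195, 145 and 161 CPM, which lay below all 3 of them. C-LTMRs averaged 149 ± 5.17 CPM (SD, n = 3) and nonpeptidergic nociceptors 145 ± 20.1 (n = 3). The lowest 4 were the A-fibre mechanoreceptors: Aβ RA-LTMRs at 122 ± 9.95 (n = 5), Aδ-LTMRs at 121 ± 10.7, Aβ SA1-LTMRs at 104 ± 9.43 and Aβ Field-LTMRs at 102 ± 26.2 CPM (n = 3 each). All 14 libraries of these 4 subtypes had 78.2 to 132.5 CPM, and all 12 libraries of the other subtypes at least 133.1 CPM, without overlap in CPM. In deposited RPKM they overlapped, with up to 32.7 in Aδ-LTMRs, against 28.2 or more in nonpeptidergic nociceptors. Its log2 fold change was 0.63 ± 0.11 in peptidergic nociceptors (adjusted p = 0.000108), 0.35 ± 0.12 in proprioceptors (adjusted p = 0.0206) and -0.47 ± 0.13 in Aβ Field-LTMRs (adjusted p = 0.0102), each under the size required.

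The ratio of alpha to gamma counts spread further over the subtypes than either row did. The ratio is not corrected for length, and the length implied by counts over the deposited RPKM varied between libraries, with an SD on the log2 scale of 0.176 for the alpha row and 0.168 for the gamma row. It was 0.986, 1.36 and 1.19 in proprioceptors and 1.32 to 1.72 in nonpeptidergic nociceptors, against 5.33 to 7.43 in Aβ Field-LTMRs and 4.38 to 7.39 in Aβ SA1-LTMRs. Aδ-LTMRs, at 4.16 to 5.10, overlapped Aβ SA1-LTMRs, and the libraries of the other 3 subtypes lay between, at 2.47 (C-LTMR library) to 4.07 (Aβ RA-LTMR library). Between Aβ Field-LTMRs and proprioceptors the mean log2 ratio differed by 2.39, a 5.25-fold difference, where the alpha row alone differed 3.16-fold; these values carry no test. In deposited RPKM the ratio differed by 2.17 on the log2 scale, a 4.49-fold difference, and the alpha row by 1.46. On the deposited rlog scale, which shrinks differences, the same values were 1.71 for the ratio and 1.19 for the alpha row.

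**Figure D2:**
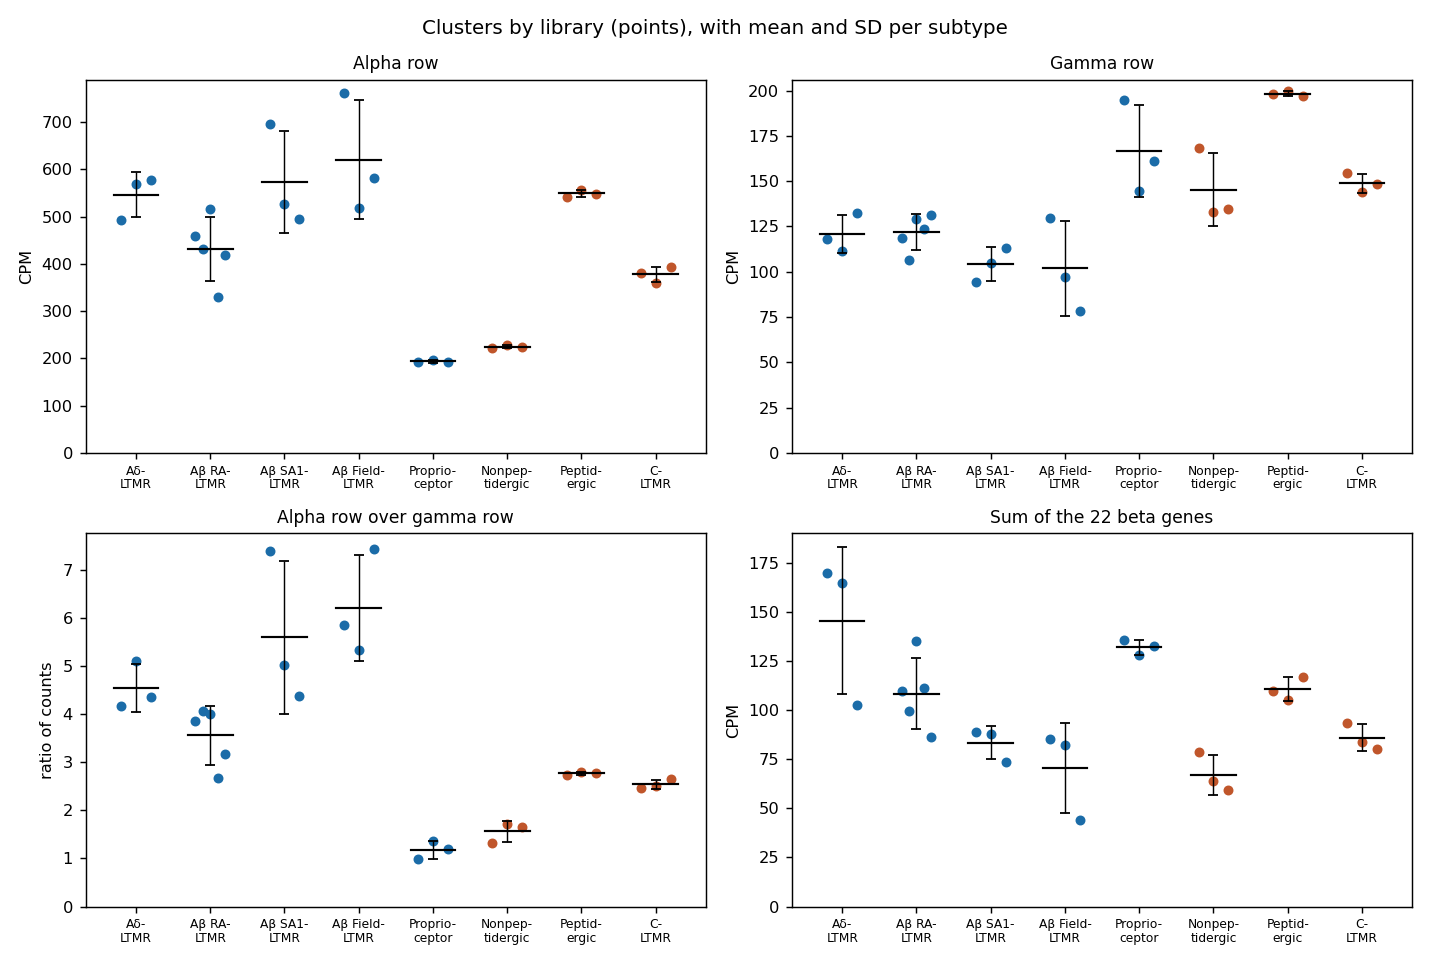
CPM of the alpha row, the gamma row and the summed beta genes, and the ratio of alpha to gamma counts, in each of 26 libraries (points; A-fibre subtypes blue, small-diameter subtypes orange), with the mean (bar) and SD (whiskers) per subtype. The 3 proprioceptor libraries lie at 192 to 196 CPM in the alpha row, below every other library.

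Summed over the 22 beta genes, CPM were highest in Aδ-LTMRs and proprioceptors and lowest in nonpeptidergic nociceptors and Aβ Field-LTMRs. In summed RPKM the lowest pair was the same, at 11.8 and 10.96, but proprioceptors (22.9 ± 1.12) and peptidergic nociceptors (22.8 ± 1.97) came before Aδ-LTMRs (21.3 ± 3.47). Aδ-LTMR libraries had 170, 164 and 102 CPM, so their high mean rested on libraries 1 and 2, the pair with 15 to 51 base reads and mapping rates below those of library 3. Proprioceptor libraries had 135, 128 and 132 CPM. Nonpeptidergic nociceptors had 78.4, 63.7 and 59.1 CPM, and Aβ Field-LTMRs 85.0, 82.0 and 44.0 CPM.

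In order of the mean, between these came peptidergic nociceptors at 111 ± 6.001, Aβ RA-LTMRs at 108 ± 18.0 (n = 5), C-LTMRs at 85.9 ± 6.799 and Aβ SA1-LTMRs at 83.4 ± 8.55 CPM (SD, n = 3 each where not stated). Only proprioceptors and peptidergic nociceptors were neighbours without overlap. The log2 difference between Aδ-LTMRs and nonpeptidergic nociceptors was 1.09, and 0.62 without Aδ-LTMR libraries 1 and 2. Proprioceptors and Aδ-LTMRs also had the highest median sums of satellite glia markers, 4893 and 2557 CPM, and nonpeptidergic nociceptors the lowest, 625.3 CPM. With the mean log2 CPM of these markers as a covariate, 9 of 23 members differed in the F test, against 17 without it. The share of all genes that differed with the covariate is not given here, so this drop is not shown to be particular to the members. Of the 21 calls of a member in a contrast that follow, 3 passed with this covariate: Pcdhb8 in Aβ RA-LTMRs, Pcdhb8 in Aβ SA1-LTMRs and Pcdhb2 in Aβ Field-LTMRs. In 14 of the 18 calls that did not pass, the log2 fold change was still 1 or more in size with the covariate, and the adjusted p was 0.05 or more. Of the 18, 8 had a larger log2 fold change in size with the covariate than without it, and 10 a smaller one. Pcdhb15, of the 8, was at 1.36 in A-fibre subtypes (adjusted p = 0.162), against 1.00 without the covariate. The score differs between the subtypes, and the part of glial RNA in these calls cannot be told apart from subtype.

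The tested beta genes shared the direction of their sum more than they shared its size. Against the other 7 subtypes, 20 of 21 beta genes had a log2 fold change above 0 in Aδ-LTMRs (median 0.56) and 20 in proprioceptors (median 0.57), against medians over all genes of 0.06 in each. Of all genes, 53.9% were above 0 in Aδ-LTMRs and 53.5% in proprioceptors. In nonpeptidergic nociceptors 19 of 21 were below 0 (median -0.70, against 0.02 over all genes), and in Aβ Field-LTMRs 17 were (median -0.42, against -0.000466). Of all genes, 50.9% were above 0 in nonpeptidergic nociceptors and 49.9% in Aβ Field-LTMRs. The median was 0.33 in peptidergic nociceptors, 0.22 in Aβ RA-LTMRs, -0.17 in C-LTMRs and -0.27 in Aβ SA1-LTMRs. By mean CPM, 9 of the 21 beta genes were highest in proprioceptors, 8 in Aδ-LTMRs and 2 in Aβ RA-LTMRs. In Aδ-LTMRs the directions and these ranks rest in part on libraries 1 and 2. Of the genes highest there, library 3 was well below both in Pcdhb5, Pcdhb17, Pcdhb18, Pcdhb19 and Pcdhb21. It was close to them in Pcdhb3 and above both in Pcdhb2 and Pcdhb6. The lowest subtype was nonpeptidergic nociceptors for 7, Aβ SA1-LTMRs for 7, Aβ Field-LTMRs for 4 and C-LTMRs for 3. Among the genes counted, Pcdhb4, Pcdhb10, Pcdhb11, Pcdhb12, Pcdhb13 and Pcdhb21 did not pass the F test. How often other genes are highest or lowest in these subtypes was not examined.

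The largest difference between subtypes in any member was that of Pcdhb8 (chromosome 18, 37355121 to 37358604). In Aβ RA-LTMRs it had 2.65, 1.86, 2.73, 1.82 and 5.34 CPM. In Aβ SA1-LTMRs it had 0.0611, 0.150 and 0.286 CPM, from 4, 7 and 18 counts. All other libraries lay between 0.601 and 2.15 CPM. The ratio of the means was 17.4, and the Aβ SA1-LTMR libraries were below every other library and 3 of the 5 Aβ RA-LTMR libraries above every other.

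Pcdhb8 was the only member higher in Aβ RA-LTMRs (log2 fold change 1.68 ± 0.26, adjusted p = 1.30e-05), 1 of 23 against 10.5% of all genes. No member was lower there by edgeR or DESeq2 (5.75% of all genes), and 1 had an unadjusted p under 0.05. Pcdhb8 was lower in Aβ SA1-LTMRs (log2 fold change -2.9996 ± 0.47, adjusted p = 2.40e-05). Within the 6 libraries of 25 to 50 base reads, it had 1.86 to 2.73 CPM in Aβ RA-LTMRs and 0.0611 to 0.286 CPM in Aβ SA1-LTMRs. With the glia score as a covariate the log2 fold changes were 1.51 (adjusted p = 0.0260) and -2.92 (adjusted p = 0.000117). Pcdhb8 shares 5.80% of its 50-base words with other protocadherins, most with Pcdhb6.

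**Figure D3:**
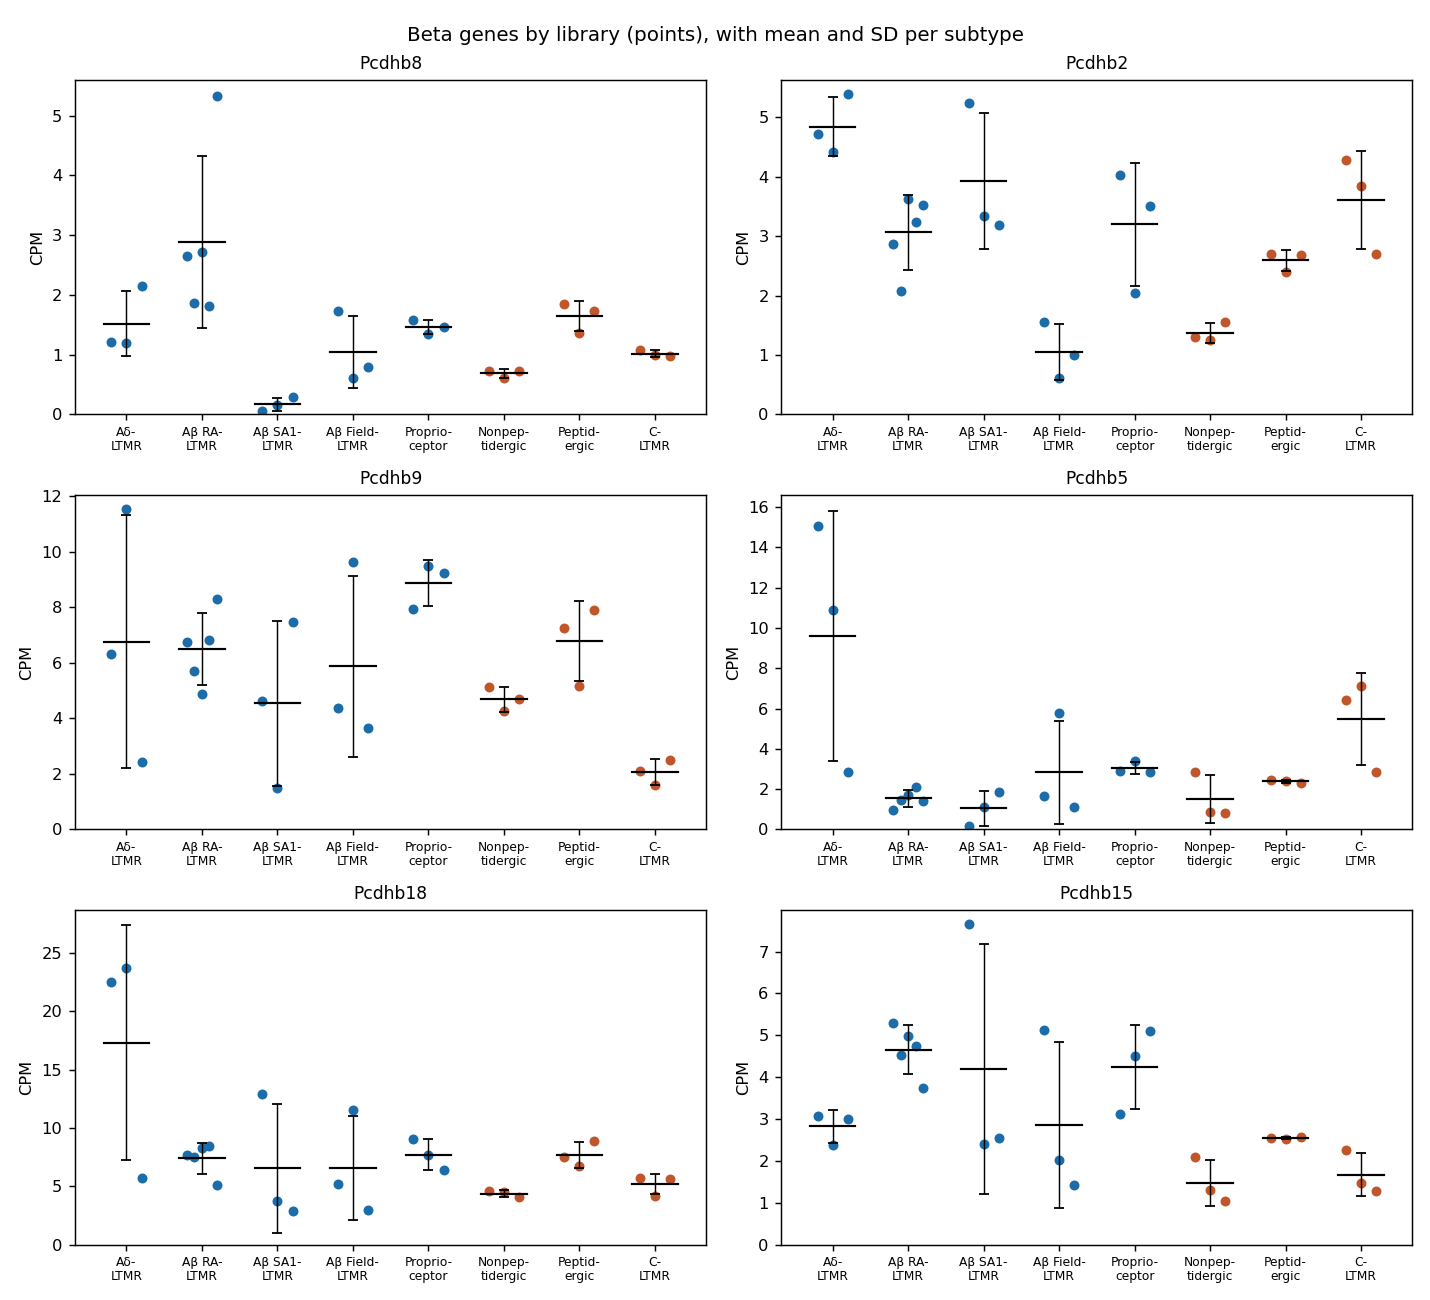
CPM of 6 beta genes in each library (points; A-fibre subtypes blue, small-diameter subtypes orange), with the mean (bar) and SD (whiskers) per subtype. Pcdhb8 has at most 0.286 CPM in Aβ SA1-LTMRs, and in Pcdhb5 and Pcdhb18 Aδ-LTMR libraries 1 and 2 lie far above library 3.

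In Aβ SA1-LTMRs 3 of 23 members were lower, against 9.32% of all genes. Beside Pcdhb8 these were Pcdhb5 and Pcdhb7. Pcdhb5 had 0.153, 1.136 and 1.84 CPM there, against a median of 2.46 CPM in the other 23 libraries (0.795 to 15.1), a log2 fold change of -1.54 ± 0.56 (adjusted p = 0.0387). Pcdhb7 had 0.168, 2.12 and 1.34 CPM, against a median of 2.79 CPM (0.901 to 5.49), a log2 fold change of -1.11 ± 0.43 (adjusted p = 0.0479). For both genes library 1 was below every library of the other subtypes, and libraries 2 and 3 were among them. Without library 1 neither passed, at -1.02 (adjusted p = 0.185) for Pcdhb5 and -0.59 (adjusted p = 0.221) for Pcdhb7; without library 2, Pcdhb7 was at -1.76 (adjusted p = 0.0109). Over the 26 omissions of a library, Pcdhb7 failed in 22 and Pcdhb5 in 3. No member was higher in Aβ SA1-LTMRs by edgeR or DESeq2 (8.41% of all genes), and 3 had an unadjusted p under 0.05. Of these 3, 2 also had an adjusted p under 0.05, the alpha row and Pcdhb2, and failed only the size required.

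The Aβ SA1-LTMR libraries differed from each other in the levels of many beta genes, although each had counts in 21 of the 22. Library 1 had 12 of the 22 beta genes at 1 CPM or more, the fewest of the 26 libraries, whereas libraries 2 and 3 had 19 and 18 and the Aδ-LTMR and proprioceptor libraries 21. Pcdhb10 had 13.0, 4.69 and 0.684 CPM in libraries 1 to 3, and Pcdhb22 had 1.21, 0.836 and 8.57 CPM. Pcdhb3, at 0.794, 8.21 and 4.66 CPM, and Pcdhb15, at 7.65, 2.40 and 2.54 CPM, also differed several-fold among them. The effective number of beta genes, the exponential of the Shannon entropy of their count shares, was 11.1 in library 1 and at most 18.6 in any library.

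To set this spread beside that of other genes, the SD of log2 CPM between libraries of a subtype was taken for each gene, as a description. Its median over the 21 tested beta genes was 0.98 in Aβ SA1-LTMRs, against 0.58 over the 4661 other genes with a mean CPM in the range of the beta genes (1.40 to 11.97). In Aβ Field-LTMRs it was 0.69, against 0.40. In Aδ-LTMRs it was 0.40 (other genes 0.43), in Aβ RA-LTMRs 0.41 (0.43), in proprioceptors 0.21 (0.30), in nonpeptidergic nociceptors 0.28 (0.22), in peptidergic nociceptors 0.17 (0.16) and in C-LTMRs 0.27 (0.17). The alpha and gamma rows varied less in Aβ SA1-LTMRs, with an SD of 0.26 and 0.13. The number of neurons and mice behind each library is not given in the sources used here, so its part in this spread was not tested.

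**Figure D4:**
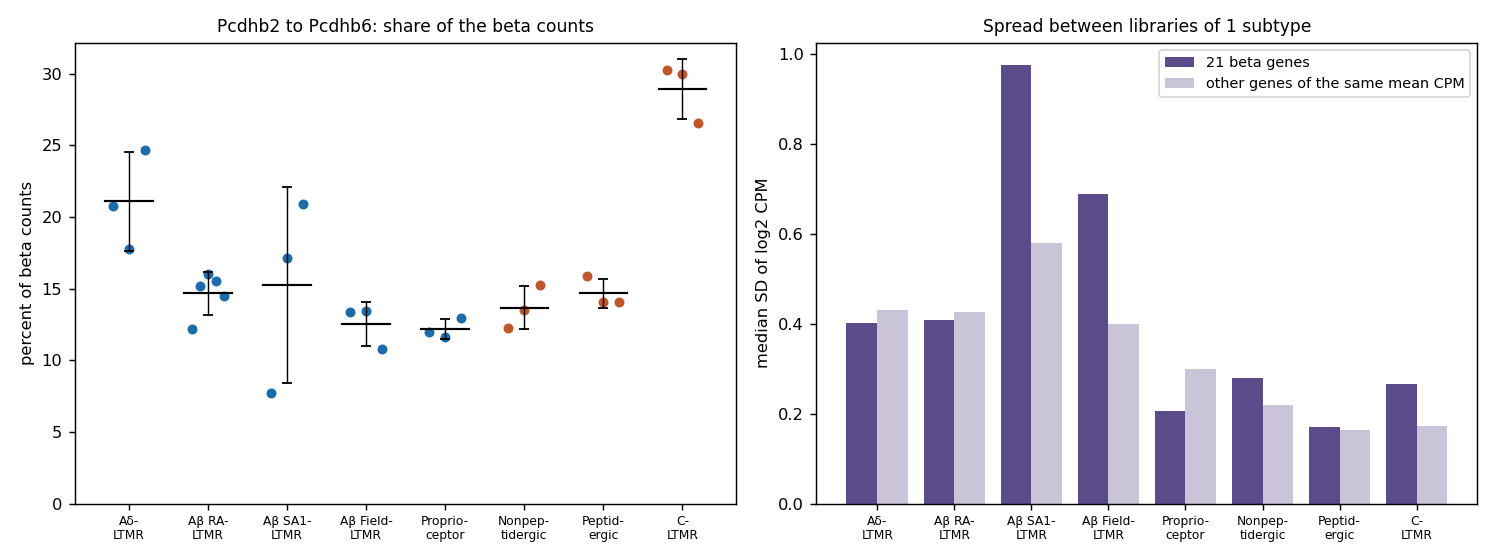
Left, the share of beta counts that came from Pcdhb2 to Pcdhb6 in each library (points; A-fibre subtypes blue, small-diameter subtypes orange), with mean (bar) and SD (whiskers) per subtype; right, the median SD of log2 CPM between libraries of a subtype for 21 beta genes and for 4661 other genes of the same mean CPM. C-LTMR shares lie between 26.6% and 30.2%, above every other library, and the spread of the beta genes is largest in Aβ SA1-LTMRs, at 0.98.

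C-LTMRs stood apart in how the beta counts were divided along the cluster. The 5 genes Pcdhb2 to Pcdhb6, a stretch chosen after their values were seen, took 30.2%, 30.0% and 26.6% of the beta counts in C-LTMRs. The other libraries lay between 7.69% (Aβ SA1-LTMR library 1) and 24.7% (Aδ-LTMR library 3). All 5 were above the mean of the 8 subtypes in C-LTMRs, whereas only 4 of the 16 genes from Pcdhb7 to Pcdhb22 were. In Aδ-LTMRs all 5 and 16 of the 16 were above it, with a larger median for the 5 genes than in C-LTMRs (0.88 against 0.74 on the log2 scale). In proprioceptors 4 of the 5 and 16 of the 16 were above it.

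In C-LTMRs 2 of 23 members were higher, against 10.1% of all genes. Pcdhb4 had 7.65, 6.68 and 5.09 CPM there, against a median of 3.30 CPM in the other 23 libraries (0.183 to 5.47), a log2 fold change of 1.09 ± 0.40 (adjusted p = 0.0357). In the F test over the subtypes this gene did not pass (adjusted p = 0.0735). Pcdhb5 had 6.43, 7.11 and 2.86 CPM, against a median of 2.13 CPM (0.153 to 15.1), a log2 fold change of 1.19 ± 0.44 (adjusted p = 0.0386). Pcdhb4 did not pass without any of the 3 C-LTMR libraries in turn (adjusted p = 0.166, 0.117 and 0.0595), nor Pcdhb5 without library 1 or 2 (adjusted p = 0.165 and 0.220).

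Pcdhb9 was the only member lower in C-LTMRs, 1 of 23 against 8.22% of all genes. It had 2.12, 1.60 and 2.501 CPM there, against a median of 6.31 CPM in the other 23 libraries (1.4998 to 11.6), a log2 fold change of -1.56 ± 0.39 (adjusted p = 0.00290). Aβ SA1-LTMR library 2 (1.4998 CPM) lay below and Aδ-LTMR library 3 (2.44 CPM) within the C-LTMR range, and all others were above it. The call held in each of the 26 omissions of a library (-1.72 to -1.40). With the glia score as a covariate it was -1.15 (adjusted p = 0.135). Fibroblast markers, 7 of 7 with counts in C-LTMRs, summed to 133 to 160 CPM there and to 8.84 to 83.8 CPM elsewhere; their part and that of the Schwann cell markers in these differences was not tested.

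In Aβ Field-LTMRs 2 of 23 members were lower, against 2.53% of all genes. Pcdhb2 had 1.55, 0.608 and 1.01 CPM there, against a median of 3.24 CPM in the other 23 libraries (1.25 to 5.39), with 2 of 3 libraries below all of these. Its log2 fold change was -1.46 ± 0.29 (adjusted p = 0.000610), or -1.42 (adjusted p = 0.000965) once the glia score was included. Pcdhb3 had 3.74, 2.03 and 1.38 CPM, against a median of 6.14 CPM (0.794 to 10.4), overlapping the other subtypes. Its log2 fold change was -1.15 ± 0.40 (adjusted p = 0.0490), and it failed in 22 of the 26 omissions of a library, with -0.85 (adjusted p = 0.291) without Aβ Field-LTMR library 3. No member was higher in Aβ Field-LTMRs by edgeR or DESeq2 (6.02% of all genes), and 1, the alpha row, had an unadjusted p under 0.05. Its adjusted p was also under 0.05, and it failed only the size required.

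In nonpeptidergic nociceptors 6 of 23 members were lower, against 16.9% of all genes. All 6 were beta genes: Pcdhb2, Pcdhb3, Pcdhb6, Pcdhb7, Pcdhb15 and Pcdhb19, with log2 fold changes from -1.33 to -1.01. Pcdhb7 had 0.909, 0.901 and 1.33 CPM there, against a median of 2.79 CPM in the other 23 libraries (0.168 to 5.49), a log2 fold change of -1.33 ± 0.43 (adjusted p = 0.0129).

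Pcdhb6 had 0.356, 0.763 and 0.812 CPM in nonpeptidergic nociceptors, against a median of 1.36 CPM (0.458 to 3.26), a log2 fold change of -1.12 ± 0.38 (adjusted p = 0.0170). Pcdhb3 had 1.98, 2.47 and 2.90 CPM, against a median of 6.14 CPM (0.794 to 10.4), a log2 fold change of -1.12 ± 0.39 (adjusted p = 0.0198). In each of the 6 genes these nociceptors overlapped libraries of other subtypes, those of Aβ Field-LTMRs among them in all 6. Without library 2, only Pcdhb2 and Pcdhb6 passed. With the glia score as a covariate none of the 6 passed, at log2 fold changes of -1.71 (Pcdhb2, adjusted p = 0.0579) to -0.86 (Pcdhb19, adjusted p = 0.602). No member was higher there by edgeR or DESeq2, nor had an unadjusted p under 0.05 in that direction (0 of 23, against 13.7% of all genes called).

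In Aδ-LTMRs 3 of 23 members were higher, against 10.3% of all genes, and 2 of the 3 depended on libraries 1 and 2. Pcdhb5 had 15.1, 10.9 and 2.85 CPM there, against a median of 2.13 CPM in the other 23 libraries (0.153 to 7.11), a log2 fold change of 2.12 ± 0.41 (adjusted p = 0.000443). Pcdhb18 had 22.5, 23.7 and 5.72 CPM, against a median of 6.39 CPM (2.89 to 12.9), a log2 fold change of 1.45 ± 0.32 (adjusted p = 0.00146). Libraries 1 and 2 were above every other library in both genes, and library 3 was among the other subtypes.

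Without these 2 libraries, an alternative chosen after seeing the data, the log2 fold change in Aδ-LTMRs was 0.35 for Pcdhb5 (adjusted p = 0.892) and -0.16 for Pcdhb18 (adjusted p = 0.962). Pcdhb6 had 2.16, 1.82 and 3.03 CPM there, against a median of 1.17 CPM (0.356 to 3.26), a log2 fold change of 1.00 ± 0.32 (adjusted p = 0.0235) that failed in 14 of the 26 omissions. Pcdhb2 and Pcdhb3, at 0.98 (adjusted p = 0.00244) and 0.97 (adjusted p = 0.0342), stood just short of the size required, and Pcdhb2 had 4.71, 4.42 and 5.39 CPM in the 3 libraries, with no split between them. No member was lower in Aδ-LTMRs by edgeR or DESeq2, nor had an unadjusted p under 0.05 in that direction (0 of 23, against 1.38% of all genes called). Mapping rates were 61.4% and 74.5% in libraries 1 and 2, against 93.8% in library 3; their part in the split was not tested.

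In proprioceptors 1 of 23 members was higher, against 14.5% of all genes. Pcdhb7 had 5.49, 3.74 and 4.23 CPM there, against a median of 2.38 CPM in the other 23 libraries (0.168 to 4.95), a log2 fold change of 1.06 ± 0.35 (adjusted p = 0.0182). It did not pass without proprioceptor library 1 (0.87, adjusted p = 0.126) or library 3 (1.09, adjusted p = 0.0578). A further 6 members, the gamma row, Pcdhb9, Pcdhb14, Pcdhb16, Pcdhb20 and Pcdhb22, had an adjusted p under 0.05 with log2 fold changes of 0.35 to 0.87. Pcdhb9, with 7.94, 9.48 and 9.24 CPM, had the highest RPKM of these beta genes after Pcdhb22. The share of all genes with an adjusted p under 0.05 at any size is not given here. The count of 6 is therefore not shown to be particular to the members.

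In peptidergic nociceptors no member was higher or lower by edgeR or DESeq2, against 10.6% and 6.51% of all genes. An unadjusted p under 0.05 was found for 4 members with higher and 0 with lower values. Of these 4, 2 also had an adjusted p under 0.05, the gamma row among them, and failed only the size required. Pcdhb13 was highest in this subtype, at 6.12, 7.27 and 7.15 CPM, with nonpeptidergic nociceptor library 1 (7.43 CPM) above all 3.

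Between the 5 A-fibre and the 3 small-diameter subtypes, the broadest division of these neurons, 1 of 23 members was higher in A-fibre subtypes, against 15.6% of all genes. Pcdhb15 ran from 1.42 to 7.65 CPM in the 17 A-fibre libraries, with a mean of 3.86 ± 1.58, and from 1.04 to 2.56 CPM in the 9 small-diameter libraries, with a median of 2.08 and a mean of 1.90 ± 0.619 (SD). Of the A-fibre libraries 12 were above every small-diameter library. The log2 fold change was 1.00 ± 0.23 (adjusted p = 0.000533), at the edge of the size required, so that 13 of the 26 omissions of a library took it under 1 (0.84 to 1.11 over all 26).

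No member was lower in A-fibre subtypes by edgeR or DESeq2 (12.9% of all genes), and 3 had an unadjusted p under 0.05. Of these 3, 2 also had an adjusted p under 0.05, the gamma row and Pcdhb13, and failed only the size required. The alpha row had a log2 fold change of 0.28 ± 0.08 (adjusted p = 0.00453) and the gamma row -0.42 ± 0.08 (adjusted p = 7.39e-05), both small, and the low alpha values of proprioceptors and nonpeptidergic nociceptors stood on either side of this contrast. The median over the beta genes was 0.20, against 0.02 over all genes.

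Levels between genes are compared per length. As the mean of the 8 subtype means, the alpha row had 56.6 RPKM and the gamma row 28.5 RPKM, above every single beta gene. Each is the only row of its cluster, so a single beta gene is not a like measure. Summed over the beta genes, subtype means ran from 10.96 RPKM (Aβ Field-LTMRs) to 22.9 RPKM (proprioceptors). Those of the gamma row ran from 19.2 to 44.2 RPKM and those of the alpha row from 23.6 to 81.0 RPKM. Of the annotated exon bases, 2499 of 5359 in the alpha row and 3477 of 5596 in the gamma row belong to no other gene. The beta genes ran from 0.00458 RPKM (Pcdhb1) to 2.21 RPKM (Pcdhb17), with a median of 0.770. Pcdhb22 and Pcdhb9 came next at 1.45 and 1.36 RPKM, and Pcdhb11 was lowest of the tested genes at 0.329 RPKM. Pcdhb1 had 17 counts in all, in 9 of the 26 libraries and at most 4 in a library; a count of 0 allows up to 3 counts, 0.0399 CPM in the deepest and 0.304 CPM in the shallowest library.

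On CPM per kilobase of exon not shared with another gene, Pcdhb17 remained the highest beta gene, and 4 of the 5 highest by RPKM were among the 5 highest. The exception was Pcdhb22, whose rank was 2 by RPKM and 16 on this scale. Pcdhb12 had rank 20 by RPKM and 5 on this scale. The length implied by counts over the deposited RPKM was not the annotated exon length. It was 3970 against 6609 bases in Pcdhb22 and 8904 against 5225 bases in Pcdhb16, so ranks by RPKM depend on the length used. Pcdhb16 and Pcdhb17 together took 16.8% to 31.2% of the beta counts of a library. At least 21 of the 22 beta genes had a count in each library.

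**Figure D5:**
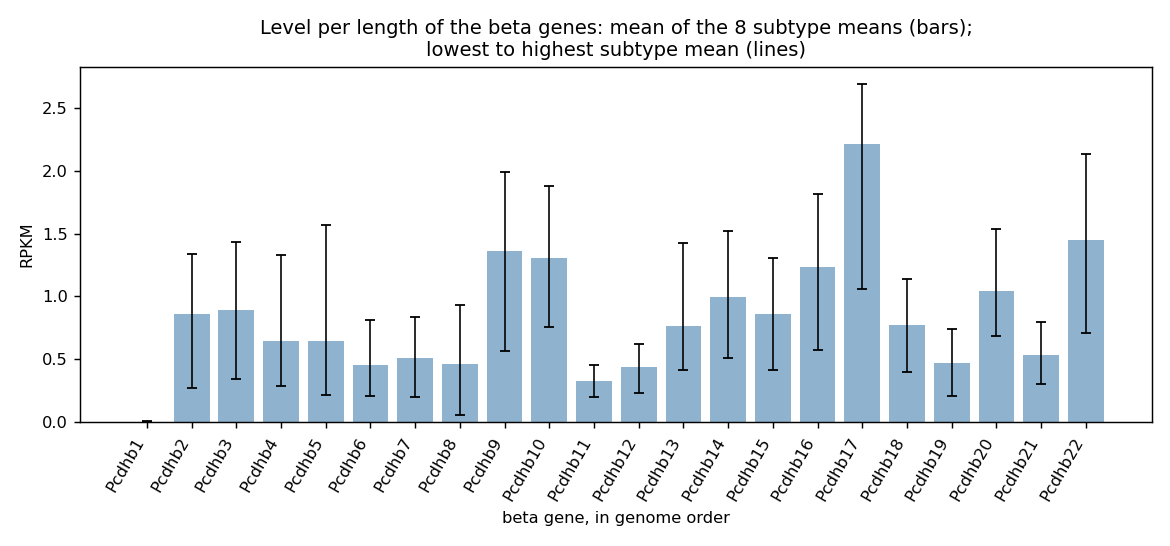
Mean RPKM of the 22 beta genes in genome order (bars, mean of the 8 subtype means), with lines from the lowest to the highest subtype mean. Pcdhb17 is highest at 2.21 RPKM and Pcdhb1 is near 0.

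Genes that act on the clusters, or with their proteins, were listed for the contrast of A-fibre over small-diameter subtypes. Of 24 regulators of the clusters, comprising CTCF, cohesin, DNA methylation and repressor genes, 1 was higher and 2 were lower, against 15.6% and 12.9% of all genes, and 21 differed in the F test, against 78.3%. Their median log2 fold change was -0.29, against 0.02 over all genes. Stag1, a cohesin subunit, was lower at -1.004 ± 0.14 (adjusted p = 9.61e-07), with subtype means of 13.6 to 27.5 CPM in A-fibre and 27.2 to 48.6 CPM in small-diameter subtypes. Dnmt3b, a DNA methyltransferase, and Uhrf1, which recruits Dnmt1, passed in opposite directions (-1.55 and 2.75) at means of at most 0.337 CPM in any subtype, so these fitted values rest on few counts. Ctcf, the factor bound at most of the variable promoters, had 20.9 to 25.6 CPM in A-fibre and 26.4 to 31.3 CPM in small-diameter subtypes and a log2 fold change of -0.30 ± 0.08 (adjusted p = 0.00364), under the size required.

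Of 20 genes for binding partners, signalling targets and processing enzymes of the proteins, 1 was higher and 6 were lower in A-fibre subtypes (15.6% and 12.9% of all genes), and 18 differed in the F test (78.3% of all genes). The median was -0.39, against 0.02 over all genes. Nlgn1, a synaptic adhesion protein, was higher at 3.91 ± 0.18 (adjusted p = 1.64e-15), with 10.3 to 27.3 CPM in A-fibre and 0.147 to 4.48 CPM in small-diameter subtypes. Prkca, protein kinase C alpha, was lower at -2.87 ± 0.12 (adjusted p = 2.68e-16), with 34.2 to 217 CPM in A-fibre and 179 to 1481 CPM in small-diameter subtypes. Ret, the receptor tyrosine kinase for GDNF-family ligands, was lower at -1.89 ± 0.09 (adjusted p = 3.60e-15), with 88.3 to 565 CPM in A-fibre and 533 to 1356 CPM in small-diameter subtypes, and the Aβ SA1- and Aβ Field-LTMR mice carry the Retf(GFP) allele. Wasf2, of the WAVE actin-regulatory complex, was lower at -1.41 ± 0.15 (adjusted p = 6.62e-09), with 12.6 to 26.3 CPM in A-fibre and 42.1 to 48.4 CPM in small-diameter subtypes. Ptk2b, a focal adhesion kinase, was lower at -1.16 ± 0.40 (adjusted p = 0.0168). It had 0.482 to 20.8 CPM in A-fibre and 0.555 (nonpeptidergic) to 33.8 CPM (peptidergic nociceptors) in small-diameter subtypes. The subtype means of Ptk2b, Prkca and Ret overlapped between the sides of the contrast.

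Of 16 other genes within or beside the clusters, 6 were higher and 1 was lower in A-fibre subtypes (15.6% and 12.9% of all genes), and 11 differed in the F test (78.3% of all genes). The median was 0.20, against 0.02 over all genes. Rell2 was higher at 2.51 ± 0.15 (adjusted p = 1.35e-13), with 25.9 to 41.9 CPM in A-fibre and 3.88 to 7.45 CPM in small-diameter subtypes. Cd14, a receptor of macrophages, whose markers summed to at most 7.14 CPM in any library, was higher at 1.95 ± 0.61 (adjusted p = 0.00790). Slc25a2, a mitochondrial carrier, was higher at 1.36 ± 0.52 (adjusted p = 0.0273), with means of at most 0.355 CPM in any subtype. Fchsd1 was higher at 1.13 ± 0.23 (adjusted p = 0.000141). Arap3 was lower at -2.64 ± 0.38 (adjusted p = 1.58e-06), with 0.0580 to 1.23 CPM in A-fibre and 0.264 to 3.48 CPM in small-diameter subtypes. The subtype means of Fchsd1 and Arap3 overlapped between the sides of the contrast.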

How the data were processed

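Raw counts per Ensembl gene, RPKM and regularized log2 values were deposited by the authors for 26 libraries. The submitters' processing notes list FastQC 0.11.3, STAR, Cuffdiff, HTSeq 0.6.1, DESeq2 1.14.1 and the build mm10, without their roles. A deposited alignment summary gave mapping, exonic and duplicate fractions, mapped read counts, a ratio of 5' to 3' bias, percent GC and read lengths; its fractions are printed as percentages here. Libraries were amplified from pooled RNA, per the labels' protocols, so p-values measure the spread between libraries that each pool mice and rounds of sorting.

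The counts were tested with edgeR 4.0.16 (filterByExpr, TMM scaling, robust quasi-likelihood fit) in R 4.3.3, over 17411 genes in 1 fit of all 26 libraries. The contrasts set each subtype minus the mean of the other 7, and the mean of 5 A-fibre subtypes minus that of 3 small-diameter subtypes. A gene was called at a Benjamini-Hochberg adjusted p under 0.05 over all genes tested and a log2 fold change of 1 or more in size. For the contrasts, shares of all genes are given for that rule only. Counts of members by an unadjusted p, or by an adjusted p at any size, have no such share beside them. CPM are counts over the scaled library size; for log2 CPM the prior count was 2. Sums, shares and ratios over members carry no test. Figures and summaries used Python 3.11.15, pandas 2.3.3 and matplotlib 3.10.9. The fit was checked on simulated counts.

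Depth limits low genes: a count of 0 allows up to 3 counts, and such limits cover counting error only. Whether counting used strand is not given in the sources used here. Positions and exons are from GENCODE M21, of the same build.

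The members and lists were chosen with earlier results of these data known. Beta genes were named where they had 1 of the 5 largest differences between subtypes, 1 of the 3 highest or 2 lowest RPKM, an end position, 1 of the 3 largest called changes of a contrast, or a library far from the others; of each list, the 4 largest called changes in each direction were named. The same rule for C-type, gamma A and gamma B genes could not be applied to 1 alpha and 1 gamma row. Other genes in the text were chosen after their values were seen. Replicate numbers do not pair libraries: over 84 pairs of equal number in different subtypes, correlations of the deviations had a median of 0.00153, and 4 were over 0.1. The alternatives were DESeq2 1.42.0, its size factors, no filter, limma 3.58.1 on log2(RPKM + 0.1) or log2(RPKM + 1) of the deposited RPKM, a replicate block, read length, glia markers, no fold threshold and the omission of libraries.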

Additional observations from a re-analysis of the deposited data

Results flagged for a closer look

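The 5 libraries of Aβ RA-LTMRs, the only subtype with more than 3, were examined on 25 quantities. These were the 23 tested members, the beta sum and the ratio of alpha to gamma. In 2 of the 25, a library lay far from the other 4. Chance alone gives such a flag in about 1 in 20 independent groups. The 25 quantities share the same libraries and are not independent, and both flags fell on library 5. Pcdhb8 had 5.34 CPM in Aβ RA-LTMR library 5, against 1.82 to 2.73 CPM in libraries 1 to 4. Pcdhb18 had 5.15 CPM in the same library, against 7.49 to 8.44 CPM in the others. Library 5 also had the lowest exonic share of the 26 libraries, 45.7%; its part in these values was not tested. Without Aβ RA-LTMR libraries 4 and 5, 19 of the 21 calls of a member in a contrast passed, that of Pcdhb8 in Aβ RA-LTMRs among them.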

How the results depend on the processing

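All 21 calls of a member in a contrast passed with DESeq2 and with its size factors. Fewer passed with no filter (15), limma on log2(RPKM + 0.1) (11) or log2(RPKM + 1) (1), read-length class (10), the glia score (3) and without Aδ-LTMR libraries 1 and 2 (13). Pcdhb18 in Aδ-LTMRs reversed, to -0.10 with read-length class and -0.16 without those libraries. The replicate numbers do not pair the libraries; with the replicate block 17 of 21 passed, with 1 member lower in Aβ Field-LTMRs and 1 higher in C-LTMRs. Members differing in the F test numbered 6 among genes with a mean RPKM of at least 1 and 9 with the glia score. The counts of called members that moved are given next by setting, where the number of genes that could be called is also smaller for a mean RPKM of at least 1. With no filter, 0 were higher in A-fibre subtypes, 1 lower in Aβ Field-LTMRs and 0 higher in C-LTMRs. With log2(RPKM + 0.1), the counts were 0 higher in A-fibre subtypes, 1 higher in Aδ-LTMRs, 0 higher in proprioceptors, 1 lower in nonpeptidergic and 1 higher in peptidergic nociceptors. With log2(RPKM + 1), each contrast had 0 calls, except the alpha row in proprioceptors. With a mean RPKM of at least 1, each had 0, except that row, Pcdhb9 (1 lower in C-LTMRs) and 1 lower in each of Aβ SA1-LTMRs and Aβ Field-LTMRs, neither of them among the 21 calls. With read-length class, 0 were higher and 1 lower in A-fibre subtypes, 0 higher in Aδ-LTMRs, 1 lower in Aβ Field-LTMRs, 1 higher in peptidergic nociceptors and 1 higher in C-LTMRs. With the glia score, 0 were higher in A-fibre subtypes, 1 higher in Aδ-LTMRs, 1 lower in Aβ Field-LTMRs, 0 higher and 0 lower in proprioceptors, 1 lower in nonpeptidergic nociceptors, and 0 higher and 0 lower in C-LTMRs; the 1 in Aδ-LTMRs and the 1 in nonpeptidergic nociceptors were not among the 21 calls. Of the 18 calls that did not pass with the score, 14 kept a log2 fold change of 1 or more in size. The size was larger than without the score in 8 of the 18 and smaller in 10, and 17 had an adjusted p of 0.05 or more. Without Aδ-LTMR libraries 1 and 2, an alternative chosen after seeing the data, 0 were higher in Aδ-LTMRs, 1 lower in Aβ Field-LTMRs, 1 higher in peptidergic nociceptors and 1 higher in C-LTMRs, and the beta sum differed by 0.62. With no fold threshold, 7 were higher and 2 lower in A-fibre subtypes, 7 higher in Aδ-LTMRs, 3 higher in Aβ RA-LTMRs, 2 higher and 5 lower in Aβ SA1-LTMRs, 1 higher and 4 lower in Aβ Field-LTMRs, 7 higher in proprioceptors, 2 higher in peptidergic nociceptors and 2 lower in C-LTMRs. Omitting 1 library at a time gave 0 to 1 higher in A-fibre subtypes, 2 to 5 higher in Aδ-LTMRs, 0 to 1 higher and 1 to 5 lower in Aβ SA1-LTMRs, 1 to 5 lower in Aβ Field-LTMRs, 0 to 2 higher in proprioceptors, 2 to 8 lower in nonpeptidergic nociceptors, 0 to 1 higher in peptidergic nociceptors, and 0 to 2 higher and 1 to 2 lower in C-LTMRs. On the rlog scale the alpha row differed by 1.19 and the ratio by 1.71, in place of 1.66 and 2.39. The cause of these shifts was not tested. Shares of all genes called under these settings are not given here, so the shifts are not shown to be particular to the members. Depth limits Pcdhb1 and, in the shallowest library, genes near 0.304 CPM.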
